A study of Homo sapiens with 17 samples.

Results

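Regions that lie over exons of genes on both strands were picked out of 3 deposited tables of m6A pull-down regions from prostate cell lines. A region was a member where its annotation named at least 1 exon on the plus strand and at least 1 on the minus strand, with an exon that also touches a promoter counted as an exon. The rule uses the annotation and no measured value. HPr1AR had 1854 members among 139373 regions (1.33%), LNCaP had 1817 among 110260 (1.65%) and 22Rv1 had 1529 among 77311 (1.98%). Of the regions over any exon, members made up 2.71%, 3.09% and 2.94%.

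HPr1AR cells are prostate epithelium without malignancy. LNCaP came from a lymph node metastasis of prostate cancer and responds to androgen, whereas 22Rv1, also a cancer line, was derived from a xenograft that had regrown after castration. All samples are labelled as wild type and vehicle-treated, grown as biological triplicates. The RNA of each line was enriched with an antibody to N6-methyladenosine (m6A) and, as background, with unspecific immunoglobulin G (IgG). The labels hold 3 IgG and 3 m6A samples of HPr1AR, 3 and 3 of LNCaP, and 3 IgG and 2 m6A samples of 22Rv1. The tables give 1 value per region and line and none per sample, so the spread between replicates cannot be given. KLK3 and KLK2, prostate secretory genes driven by androgen, had 0 listed exon regions in HPr1AR, while LNCaP listed 2 of each and 22Rv1 listed 4 of KLK3 and 2 of KLK2.

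m6A is a methyl mark that a methyltransferase complex writes onto adenosines of messenger and long non-coding RNA, most often in long exons and near stop codons. It is read by proteins that act on splicing, export, translation and decay. Neighbouring genes on opposite strands come in 3 arrangements. Convergent genes run towards each other and meet or overlap at their 3 prime ends. Divergent genes run away from each other and often share a promoter, with a coding gene on one side and a coding gene or a long non-coding RNA on the other. Antisense genes can also lie inside one another, so that an exon of one covers an exon or intron of its partner.

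A divergent pair is best seen in the sequence between its starts, which lies before both genes. The RefSeq promoter windows (GRCh38.p14) of 3 pairs are given here, each with 250 bases before and 50 bases after a transcription start, read 5 prime to 3 prime on the gene's own strand. Capitals mark the 50 transcribed bases. The plus-strand windows are those of ZEB1 (chr10:31320304-31320603), MAPKAPK5 (chr12:111841978-111842277) and H2AC6 (chr6:26123922-26124221). The minus-strand windows are those of ZEB1-AS1 (chr10:31320398-31320697), MAPKAPK5-AS1 (chr12:111841881-111842180) and H2BC4 (chr6:26123877-26124176). ZEB1, a repressor of epithelial genes, and its antisense RNA ZEB1-AS1, on chromosome 10, and the kinase gene MAPKAPK5 and MAPKAPK5-AS1, on chromosome 12, are shown because their shared regions were among the strongest in all 3 lines. The histone pair H2AC6 and H2BC4, on chromosome 6, is shown because its shared region had log2 ratios of 0.35, 0.65 and -0.58 (HPr1AR, LNCaP, 22Rv1), low for a member.

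ZEB1: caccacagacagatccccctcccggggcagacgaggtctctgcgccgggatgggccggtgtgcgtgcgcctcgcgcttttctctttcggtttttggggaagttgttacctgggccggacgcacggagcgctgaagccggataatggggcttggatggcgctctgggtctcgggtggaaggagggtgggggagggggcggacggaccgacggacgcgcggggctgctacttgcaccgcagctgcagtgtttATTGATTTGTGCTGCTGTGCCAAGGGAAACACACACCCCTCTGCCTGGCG
ZEB1-AS1: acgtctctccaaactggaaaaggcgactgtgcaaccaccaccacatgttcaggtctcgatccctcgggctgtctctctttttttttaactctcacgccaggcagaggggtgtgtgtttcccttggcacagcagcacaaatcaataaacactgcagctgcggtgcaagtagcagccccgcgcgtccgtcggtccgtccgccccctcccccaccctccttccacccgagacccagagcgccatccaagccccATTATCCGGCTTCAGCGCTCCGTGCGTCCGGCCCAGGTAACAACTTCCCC
MAPKAPK5: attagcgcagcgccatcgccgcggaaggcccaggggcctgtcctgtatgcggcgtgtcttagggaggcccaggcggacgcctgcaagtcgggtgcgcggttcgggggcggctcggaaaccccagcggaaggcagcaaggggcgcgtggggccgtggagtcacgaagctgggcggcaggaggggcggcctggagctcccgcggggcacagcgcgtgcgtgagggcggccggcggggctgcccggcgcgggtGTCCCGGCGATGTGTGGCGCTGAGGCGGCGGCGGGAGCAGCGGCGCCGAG
MAPKAPK5-AS1: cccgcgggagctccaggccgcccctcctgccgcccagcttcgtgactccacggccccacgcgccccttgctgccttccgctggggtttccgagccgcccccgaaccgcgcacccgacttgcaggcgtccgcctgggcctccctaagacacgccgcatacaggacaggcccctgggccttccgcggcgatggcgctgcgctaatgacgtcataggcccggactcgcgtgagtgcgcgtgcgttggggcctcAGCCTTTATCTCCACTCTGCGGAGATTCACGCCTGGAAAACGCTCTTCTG
H2AC6: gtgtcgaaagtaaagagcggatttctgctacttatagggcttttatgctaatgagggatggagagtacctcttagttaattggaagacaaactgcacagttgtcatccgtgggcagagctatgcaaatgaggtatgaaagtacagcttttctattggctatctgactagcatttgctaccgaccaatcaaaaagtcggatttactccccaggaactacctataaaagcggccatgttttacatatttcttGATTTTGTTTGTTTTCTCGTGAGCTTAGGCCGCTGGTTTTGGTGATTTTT
H2BC4: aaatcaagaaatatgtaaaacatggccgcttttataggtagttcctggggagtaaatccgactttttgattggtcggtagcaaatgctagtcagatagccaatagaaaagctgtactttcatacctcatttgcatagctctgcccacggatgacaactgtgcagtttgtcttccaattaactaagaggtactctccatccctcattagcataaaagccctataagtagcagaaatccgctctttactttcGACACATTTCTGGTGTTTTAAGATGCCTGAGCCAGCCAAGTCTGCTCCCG

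The nearest listed starts of ZEB1 and ZEB1-AS1 lie 107 bp apart, and their 2 windows share 206 bp. MAPKAPK5 and MAPKAPK5-AS1 start 298 bp apart and share 203 bp of their windows. H2AC6 and H2BC4 start 246 bp apart and share 255 bp. The ZEB1 and MAPKAPK5 windows were 65% and 76.3% G or C, and the H2AC6 window 41%. GGACT, a common core of m6A sites, was searched on both strands (AGTCC on the other). It was found in 1 of these 6 windows, that of MAPKAPK5-AS1, outside the 50 transcribed bases. Over all 35116 RefSeq promoter windows of this length, 44.2% held it on either strand and 4.90% held it in the 50 transcribed bases. Among the windows of divergent pairs with a higher region in at least 1 line, the shares were 47.8% and 5.05% of 1327. Among those of divergent pairs higher in no line, they were 47.3% and 1.79% of 112, the latter being 2 windows. The match is a count of letters in these windows and shows no methylated site.

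Of the 3851 gene symbols named in the members, 3734 matched a RefSeq symbol, 77 an older symbol and 40 none, and 3033 had a RefSeq promoter window. Positions below are those of the deposited tables. According to the submitters' processing notes the build is hg38, but no more than 9.16%, 9.47% and 9.45% of the member gene and region pairs overlapped the gene's GRCh38 span, so the build of these positions is not settled and no sequence was read by them.

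The question asked of each member was whether its RNA was taken up more by the m6A antibody than by IgG. The deposited log2 fold subtracts the reference log rate 2 times, so the reads of each region's leading window were worked back from the fold and p-value. Numerator and reference reads were then compared as an ordinary ratio, relative to depths of 5.13 M and 11.7 M reads in HPr1AR, 3.92 M and 8.87 M in LNCaP, and 3.298 M and 4.82 M in 22Rv1. The headers do not name the numerator. It is taken here to be m6A, after the names of the tables, and "higher" means more reads in it. A region was called higher or lower at a Benjamini-Hochberg adjusted p under 0.05 in an exact two-sided binomial test, adjusted over all regions of the line. Intervals are 95% exact binomial intervals and cover counting error only. Where the reference had 0 reads, the ratio was taken at a floor of 3 reads. Where the deposited p-value was 0, or no counts matched it, the smallest reads that fit were used, and the ratio is "at least" the value given. The reference reads of such regions are smallest fits as well and may be larger. Reads carry no strand in these tables, so reads from the 2 genes of a pair cannot be told apart.

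By the authors' deposited table nearly every member passed at an adjusted p under 0.05, namely 1847 of 1854, 1812 of 1817 and 1528 of 1529 (HPr1AR, LNCaP, 22Rv1). The background over all listed regions was 96.5%, 95.4% and 99.3%, so this call hardly separates regions.

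By the ordinary read ratio, members were higher far more often than regions at large. In HPr1AR 1568 of 1854 members were higher (84.6%), against 38.0% of all regions. In LNCaP it was 1490 of 1817 (82.0%), against 37.5%, and in 22Rv1 1285 of 1529 (84.0%), against 54.4%. Measured against the median ratio of the line instead of depth, the shares fell to 61.2%, 60.3% and 35.9% of members (HPr1AR, LNCaP, 22Rv1), against 21.5%, 21.7% and 15.8% of all regions. The median log2 ratio of the members was 2.95, 2.98 and 3.05 (HPr1AR, LNCaP, 22Rv1), where all regions had 1.19, 1.18 and 2.10. Regions over exons of 1 gene had 1.34, 1.30 and 1.75, and regions over exons of 2 or more genes on the same strand had 1.93, 1.88 and 1.96. In these medians, ratios known only as lower bounds stand at their bound. HPr1AR had 607 members with such bounds, LNCaP 551 and 22Rv1 17.

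**Figure D1:**
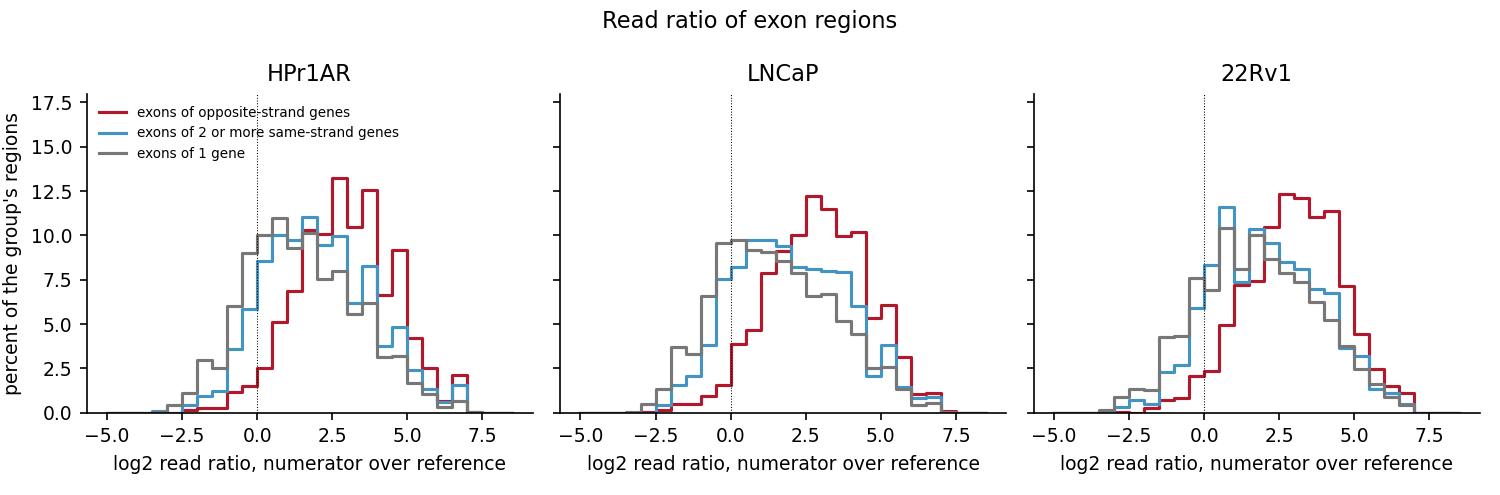
Log2 read ratio of numerator over reference (x axis, bins of 0.5) against the percent of each group's regions (y axis), with 1 panel per cell line and 1 line per kind of exon region. The opposite-strand regions sit to the right of both other groups in each panel, with medians of 2.95, 2.98 and 3.05.

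Size moved with this result, and a region that reaches exons of 2 genes tends to be wide. The median member spanned 1830 bp in HPr1AR, 1860 bp in LNCaP and 1520 bp in 22Rv1, and the median 1-gene exon region 350, 360 and 310 bp. Members also held more reads, with medians of 54, 47 and 46 against 17, 15 and 16. Lower-bound regions stand at their smallest reads in these medians and in every comparison by reads below. Regions of 1 gene with as many windows and reads as the members were higher in 71.9%, 71.8% and 75.4% of cases, in the order HPr1AR, LNCaP and 22Rv1. Same-strand regions so weighted were higher in 71.4%, 68.5% and 70.3%, the last over 1527 members with a match. The members' shares of 84.6%, 82.0% and 84.0% lay above these, and the part of size in the rest of the difference was not tested.

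The distance from 1-gene regions was widest at 10 to 19 reads. Among regions with 10 to 19 reads, 62.2% of 241 members were higher in HPr1AR and 23.1% of the 21318 regions of 1 gene. Among those with 40 to 79 reads, it was 94.98% of 876 members and 84.7% of 12993 regions. Lower-bound regions are binned at their smallest reads, so some may belong in a higher bin. In 22Rv1 the shares at 10 to 19 reads were 60.9% and 33.8%, and at 80 or more reads 93.1% and 91.0%.

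**Figure D2:**
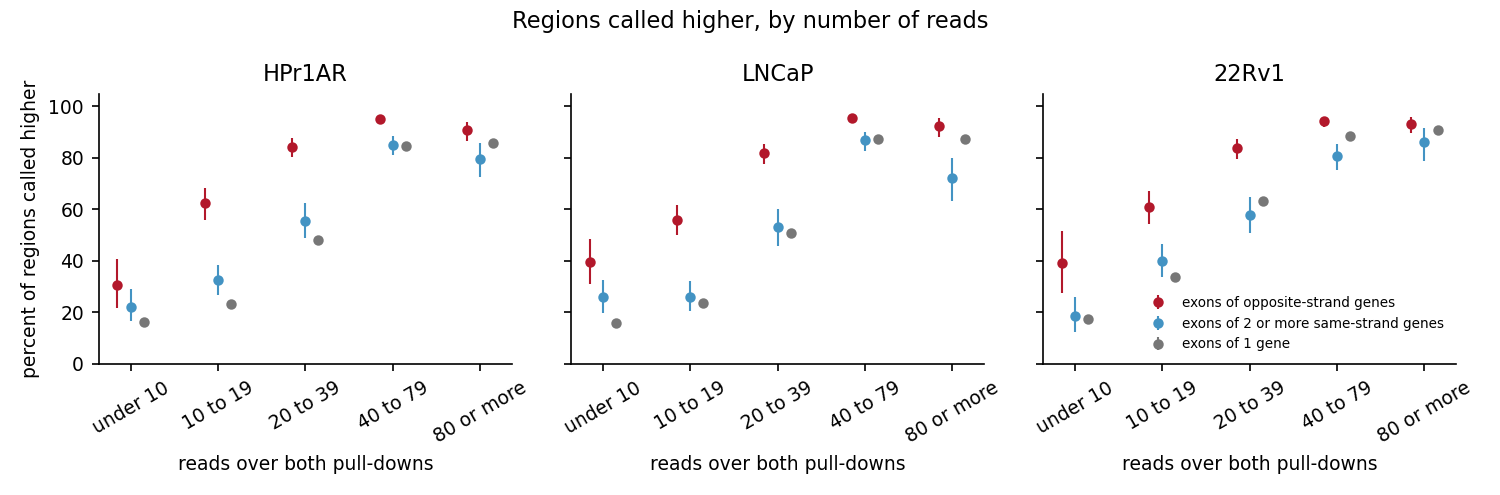
Percent of regions called higher (y axis) by the number of reads over both pull-downs (x axis), 1 panel per line; points are shares and bars 95% exact binomial intervals. Members lie above both other kinds of exon region at 10 to 79 reads in each line, and the groups come close at 80 or more reads in 22Rv1. Lower-bound regions are binned at their smallest reads.

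The leading window was taken as it stands, although wide regions search more windows. With each binomial p multiplied by the region's number of windows, an alternative added after the data were seen, the higher members came to 72.5%, 69.4% and 71.7% (HPr1AR, LNCaP, 22Rv1). All regions then gave 27.1%, 25.8% and 40.4%.

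Few members were lower relative to depth. The test called 2 in HPr1AR and 3 in 22Rv1, and 0 in LNCaP, where the background was 0.0911%, 0.752% and 0.0989% of regions, in that order. Measured against the median ratio of the line, 44 members were lower in HPr1AR (2.37%), 134 in 22Rv1 (8.76%) and 32 in LNCaP (1.76%), against 6.91%, 16.2% and 6.69% of all regions. In HPr1AR the short region over LACTB2 and its antisense RNA LACTB2-AS1 held 1 numerator read and 19 reference reads, a log2 ratio of -3.06 (interval -8.43 to -0.40). The region over MCMDC2 and SNHG6, the host gene of a small nucleolar RNA, held 10 reads against 52 in HPr1AR, a log2 ratio of -1.19 (-2.33 to -0.20). It was lower in 22Rv1 as well, with 12 reads against 39 and a log2 ratio of -1.15 (-2.22 to -0.19). In 22Rv1 the other lower regions were those of WDR38 with the ribosomal protein gene RPL35 (25 reads against 64, log2 ratio -0.81) and of the histone genes H2AC6 and H2BC4 (47 against 103, -0.58). Their adjusted p-values in the exact binomial test lay between 0.0313 and 0.0438, and 0 of them passed at 0.01. At an unadjusted p under 0.05 in the same exact test, 4 members of HPr1AR, 2 of LNCaP and 3 of 22Rv1 were lower.

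Orientation was read from the exons listed to the left and right of each region within 10000 bp. A convergent region lies at the last listed exon of both genes, a divergent one at the first exon of both. There were 514, 548 and 477 convergent regions (HPr1AR, LNCaP, 22Rv1), 801, 754 and 597 divergent ones, and 539, 515 and 455 others, with exons inside a gene or with no other exon near. Among regions called convergent or divergent by this rule, the order of the genes in RefSeq gave the reverse in 10 of 1291, 10 of 1280 and 8 of 1060.

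Divergent regions were higher in 90.6% of cases in HPr1AR, 85.7% in LNCaP and 87.6% in 22Rv1. Convergent regions were higher in 83.7%, 83.4% and 86.2%, and the others in 76.4%, 75.1% and 77.1%. Convergent regions were the widest, with medians of 2670, 2685 and 2490 bp, and had the most reads. Divergent regions were 1620, 1660 and 1260 bp wide. Weighted to the windows and reads of all members, convergent regions came to 75.7%, 77.3% and 82.8%, divergent ones to 88.7%, 85.0% and 87.4%, and the others to 83.8%, 81.7% and 82.2%. The convergent share was then below that of the others in HPr1AR and LNCaP, and below the divergent share in every line. With p multiplied by the number of windows, the order of the first 2 turned in LNCaP (divergent 71.5%, convergent 72.8%) and 22Rv1 (73.4% and 76.9%), and in HPr1AR they came to 76.4% and 75.7%. The order of convergent and divergent regions thus differed between these settings.

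Single genes allow a closer comparison, since their regions can be taken at the same end, placed by the same rule. At the 3 prime end, regions of 1 gene with the same windows and reads as convergent members were higher in 85.4% of cases in HPr1AR, 83.5% in LNCaP and 85.2% in 22Rv1, against 83.7%, 83.4% and 86.2% of the members. The matched share was thus above that of the members in HPr1AR and LNCaP and below it in 22Rv1. The members' binomial intervals, which treat regions as independent, were 80.2% to 86.8%, 80.01% to 86.4% and 82.7% to 89.1%. With p multiplied by the number of windows, convergent members came to 75.7%, 72.8% and 76.9% (HPr1AR, LNCaP, 22Rv1). Matched regions of 1 gene then came to 78.1%, 75.8% and 76.8%. At the 5 prime end, the matched regions of 1 gene were higher in 82.7%, 80.5% and 82.5%, against 90.6%, 85.7% and 87.6% of the divergent members. With p multiplied by the number of windows the gap at the 5 prime end was smaller, 76.4% against 69.0% in HPr1AR, 71.5% against 67.7% in LNCaP and 73.4% against 69.1% in 22Rv1. No test was run over these lists.

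**Figure D3:**
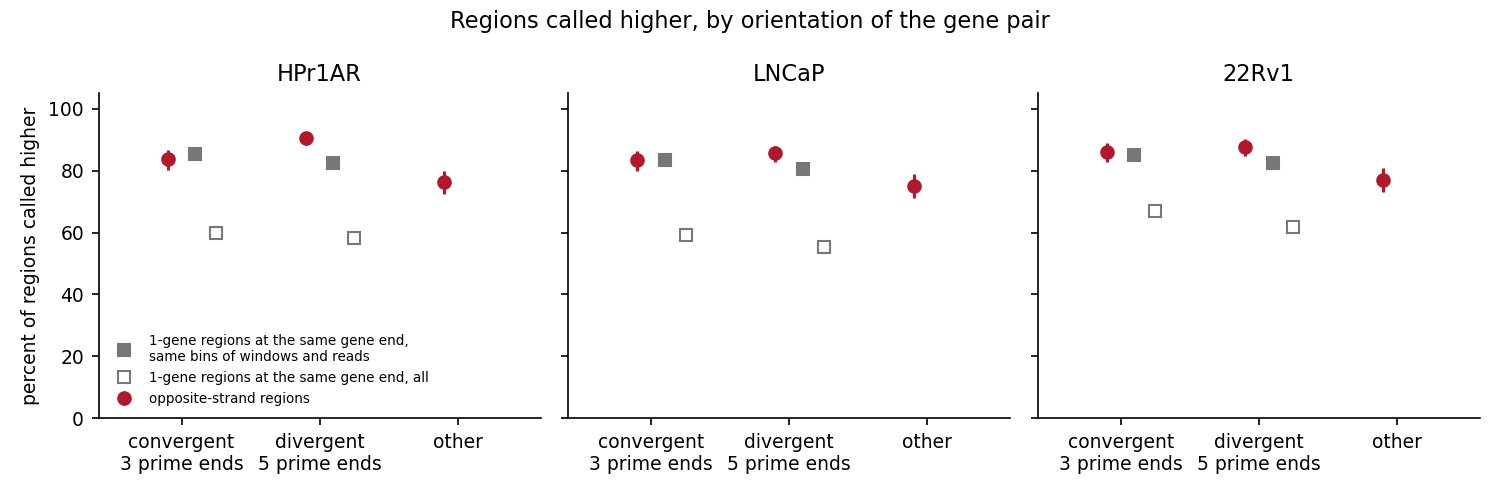
Percent of regions called higher (y axis) for convergent, divergent and other gene pairs (x axis), 1 panel per line; circles are the opposite-strand regions with 95% exact binomial intervals, filled squares 1-gene regions at the same gene end weighted to the same windows and reads, open squares all 1-gene regions at that end. Filled squares fall at the convergent circles and below the divergent ones, at 82.7%, 80.5% and 82.5%.

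The leading convergent regions of HPr1AR lay over the 3 prime ends of TBCD, a tubulin folding cofactor, and B3GNTL1, on chromosome 17 from 80900171 to 80903450, with 56 numerator reads against 0 (log2 ratio at least 5.41, lower limit 5.07). SELENOO, a selenoprotein gene, with TUBGCP6, of the gamma-tubulin ring complex, held 55 reads against 0 (at least 5.39). L3MBTL2, a reader of methylated histones, with CHADL, held at least 54 against 1. In LNCaP they were TICRR with KIF7 and TNK1 with TMEM256-PLSCR3, each with at least 56 reads against 0, and TAF5, a subunit of the general transcription factor TFIID, with ATP5MK, of the mitochondrial ATP synthase, with 54 against 0. In 22Rv1, ZNF446 with the bile acid gene SLC27A5 held 76 reads against 0 (at least 5.21, lower limit 4.88). A1BG-AS1 with ZNF497 had 71 against 0, and LPIN3, a phosphatidate phosphatase, with EMILIN3 had 68 against 0. All of these regions had a reference at 0 or 1 read in the counts used, so their order rests on numerator reads. Regions whose reads are lower bounds were ranked at their smallest reads, here and below. They made up 250, 231 and 12 of the convergent regions (HPr1AR, LNCaP, 22Rv1). The rank among the strongest regions is thus partly set by that bound.

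The genes of a pair could also carry exon regions of their own. A gene counted as higher alone where at least 1 such region was higher, so genes with many regions pass more easily. Of 425, 453 and 404 convergent pairs with a higher shared region (HPr1AR, LNCaP, 22Rv1), 270, 283 and 254 had both genes listed alone. Among these, both genes were also higher alone in 191, 172 and 184 pairs (70.7%, 60.8% and 72.4%). In 8, 15 and 9 pairs neither gene had a higher region of its own. The shared regions of divergent pairs gave 291 of 435, 244 of 367 and 207 of 307 with both genes higher alone, and 17, 18 and 11 with neither. Where the shared region was not higher, both genes were higher alone in 28 of 53, 26 of 51 and 19 of 35 convergent pairs and in 32 of 44, 42 of 72 and 21 of 41 divergent pairs. For divergent pairs of HPr1AR that share, 72.7%, was above the 66.9% of pairs with a higher shared region. No such share was taken over all genes, so these counts do not set paired genes apart from others.

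Divergent regions were led in HPr1AR by MAPKAPK5 with MAPKAPK5-AS1, GRK4 with the ribosome assembly gene NOP14, and HSPB9, a small heat shock protein gene, with the histone acetyltransferase gene KAT2A. In the smallest counts that fit, all 3 had 54 numerator reads and 0 reference reads, a log2 ratio of at least 5.36 (lower limit 5.01). In LNCaP they were the microRNA gene MIR760 with BCAR3 (57 reads against 0, at least 5.42), ATXN8OS with KLHL1, a pair known from a spinocerebellar ataxia locus, and the ubiquitin ligase gene RNF217 with RNF217-AS1 (both at least 56 against 0). In 22Rv1 they were CCDC18 with TMED5, a cargo receptor gene of the secretory pathway (71 against 0, at least 5.11), the pseudogene HTR7P1 with the heme binding protein gene HEBP1 (69 against 0), and CUTALP with PSMD5, a chaperone of proteasome assembly (57 against 0).

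The distance between the starts did not order the calls. RefSeq listed both starts for 598, 558 and 441 divergent regions (HPr1AR, LNCaP, 22Rv1). The nearest starts of a pair lay 125.5, 129 and 120 bp apart in the median, and the genes overlapped at their starts in 108, 99 and 87 regions. Where starts lay 1 to 250 bp apart, higher calls covered 89.9% of 358, 84.7% of 333 and 86.4% of 264 regions. Where the genes overlapped at their starts, it was 88.9%, 87.9% and 83.9%, and above 250 and up to 1000 bp 94.1%, 86.8% and 85.1%. The order of the distance classes was not the same in the 3 lines.

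In the remaining regions, the share of higher calls differed with the parts of the genes that met. A 3 prime end of one gene over a 5 prime end of its partner was higher in 87.3% of 134, 85.1% of 134 and 83.2% of 119 regions, in the order HPr1AR, LNCaP and 22Rv1. An internal exon over an internal exon was higher in only 56.8% of 37, 54.0% of 50 and 58.6% of 29. These internal regions were also narrow and had few reads, with medians of 760, 785 and 760 bp and of 21, 15 and 21 reads. Of all regions that were neither convergent nor divergent, the leading ones in HPr1AR were those of BCDIN3D-AS1 with the RNA methyltransferase gene BCDIN3D, AIMP1 with TBCK, and LURAP1 with the glycosylation gene POMGNT1, with reference reads of 0, 1 and 1. In LNCaP they were MTHFD1, of folate metabolism, with ZBTB25 (56 reads against 0), ZBTB8A with ZBTB8OS (53 against 0), and the adenosine receptor gene ADORA2A with ADORA2A-AS1 (42 against 0). In 22Rv1, TSSK2, a testis kinase gene, with the splicing gene ESS2 held 77 against 0 (log2 ratio at least 5.23, lower limit 4.90), NOP14-AS1 with NOP14 held 68 against 0, and C4orf19 with RELL1 held 59 against 0.

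Members were also grouped by the kind of partner. Pairs of 2 protein-coding genes made up 1301, 1275 and 1070 members (HPr1AR, LNCaP, 22Rv1), and 85.2%, 82.2% and 84.9% of them were higher. Members with an antisense-named RNA numbered 330, 317 and 288, with 81.5%, 81.1% and 83.3% higher. Those with a LINC or LOC gene numbered 70, 69 and 53, with 82.9%, 81.2% and 81.1% higher. Smaller or mixed classes varied more between lines. Members with a microRNA or small nucleolar RNA numbered 26, 27 and 21, with 76.9%, 85.2% and 85.7% higher, and the 127, 129 and 97 members with other partners had 88.2%, 82.2% and 78.4% higher. The median log2 ratio was larger with an antisense-named RNA, 3.39, 3.25 and 3.29, than in coding pairs, 2.80, 2.79 and 3.01. Reference reads moved with it, at medians of 6, 5 and 3 against 10, 9 and 7.

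Histone genes were the exception to the high ratios. Most histone genes are replication-dependent, sit in clusters, often in head-to-head pairs that share a promoter, and give messages that end in a stem-loop and carry no poly(A) tail. The linker variant H1-10, also counted here, is not tied to replication. HPr1AR had 12 members with a histone gene, LNCaP 14 and 22Rv1 10, and 12, 13 and 10 of these were divergent. Their median log2 ratio was 0.72, 1.19 and 0.51, beside 2.95, 2.98 and 3.05 over all members. Higher calls numbered 7 of 12 (58.3%), 12 of 14 (85.7%) and 4 of 10 (40%). Over all members the shares were 84.6%, 82.0% and 84.0%, and over all regions 38.0%, 37.5% and 54.4%. The LNCaP share of calls was thus not below that of all members, though the median ratio was. Reference reads were high, with medians of 72.5, 57.5 and 57.5 against 9, 8 and 6 over all members.

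H2AC6 and H2BC4 held 66 reads against 118 in HPr1AR, a log2 ratio of 0.35 (interval -0.11 to 0.80). In LNCaP they held 57 against 82, a log2 ratio of 0.65 (0.14 to 1.16), and were called higher, where more than 1 pair of counts gives the deposited fold. The 22Rv1 value of -0.58 (-1.11 to -0.07) was the lowest of the 3 lines. H3C10 with H2BC13 was not called in any line, at log2 ratios of 0.25, 0.44 and -0.26, the second again with counts that are not unique. H2BC15 with H2AC15 was the contrary case, with 44 reads against 33 in HPr1AR, at least 57 against 3 in LNCaP and 32 against 1 in 22Rv1. H2AC20 with H2AC21 was higher in every line, at log2 ratios of 3.35, at least 2.38 and 5.55. Histone genes of a family are near-identical copies, and how reads that match several copies were counted is not given in the sources used here.

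**Figure D4:**
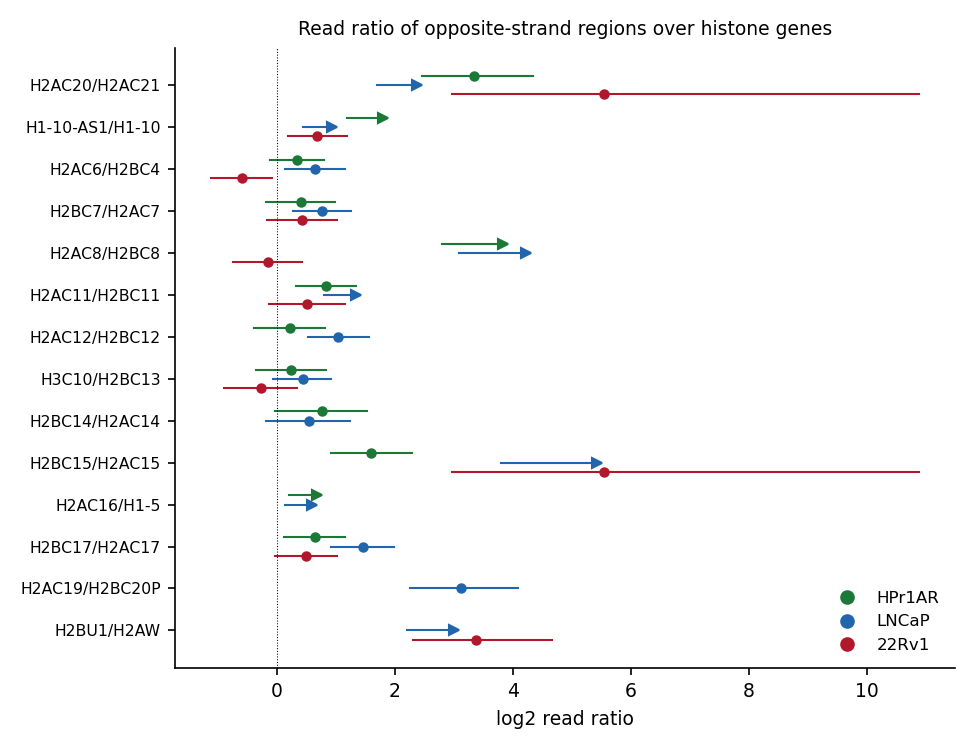
Log2 read ratio (x axis) of the 36 opposite-strand regions over histone genes, 1 row per pair and 1 colour per line; circles carry 95% exact binomial intervals, and arrowheads are lower bounds drawn from their lower limit. Most pairs lie between -1 and 2, with H2AC6/H2BC4 of 22Rv1 at -0.58, and H2BC15/H2AC15 of 22Rv1 at 5.55.

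Counting each gene pair once, 1847 pairs had a member region in HPr1AR, 1835 pairs had one in LNCaP, 1532 in 22Rv1, and 2212 in any line. Of the 1288 pairs listed in all 3 lines, 1004 were higher in all 3 (78.0%). Only 28 of them were higher in HPr1AR alone, 16 in LNCaP alone and 20 in 22Rv1 alone, a contrast between lines for which no test was run. A pair that is not listed in a line can still have a region there that does not span exons of both genes. In HPr1AR, LNCaP and 22Rv1, 14.0%, 10.9% and 3.40% of member regions overlapped no member of either other line. Only 4.58%, 2.09% and 1.24% overlapped no region of either. Why a pair was not listed was not tested, and bulk samples cannot tell fewer transcribing cells from less RNA per cell. Of the member regions, 69.4%, 70.5% and 84.6% (HPr1AR, LNCaP, 22Rv1) overlapped a member of both other lines by at least 1 bp. The lists differ in length, and the share was largest for the shortest list. No such share was taken over all regions or all genes. Whether members are shared more or less than other regions, which are narrower, thus cannot be said.

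The pairs that were strongest in all 3 lines were ranked by their smallest lower limit, with lower-bound regions again taken at their smallest reads. CCDC157 with KIAA1656, on chromosome 22, held at least 54 reads against 1 in HPr1AR, at least 56 against 2 in LNCaP and 47 against 0 in 22Rv1. NOP14-AS1 with NOP14 held at least 54 against 0, at least 56 against 2 and 68 against 0, in regions that differ between lines. In HPr1AR it was the divergent region named above for GRK4 and NOP14, on chromosome 4 from 2963361 to 2967820. In LNCaP (2940381 to 2942930) and 22Rv1 (2940471 to 2945390) it was a region over internal exons of both genes. The ratios of these 2 pairs were at least 4.52 on the log2 scale in each line.

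MAPKAPK5 with MAPKAPK5-AS1, whose promoter windows are given above, held at least 54 reads against 0 in HPr1AR, at least 56 against 2 in LNCaP and 66 against 1 in 22Rv1. Its region ran from 112277561 to 112280580 on chromosome 12 in both HPr1AR and LNCaP. ZEB1 with ZEB1-AS1 held at least 55 against 2, at least 56 against 2 and 64 against 1, on chromosome 10 from 31606881 to 31607980 in HPr1AR. Their 22Rv1 log2 ratios were 6.59 (4.06 to 11.92) and 6.55 (4.02 to 11.87). PRSS23, a serine protease gene, with the Wnt receptor gene FZD4 held at least 55 against 2, 58 against 1 and 55 against 0, at the 3 prime end of FZD4. FAM201A with ANKRD18A, ACMSD with CCNT2-AS1, and UBXN2A with the chromatin gene ATAD2B completed the leading 8. In the counts used, no reference of these pairs exceeded 2 reads in any line. Where those counts are the smallest that fit, the reference may be larger.

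**Figure D5:**
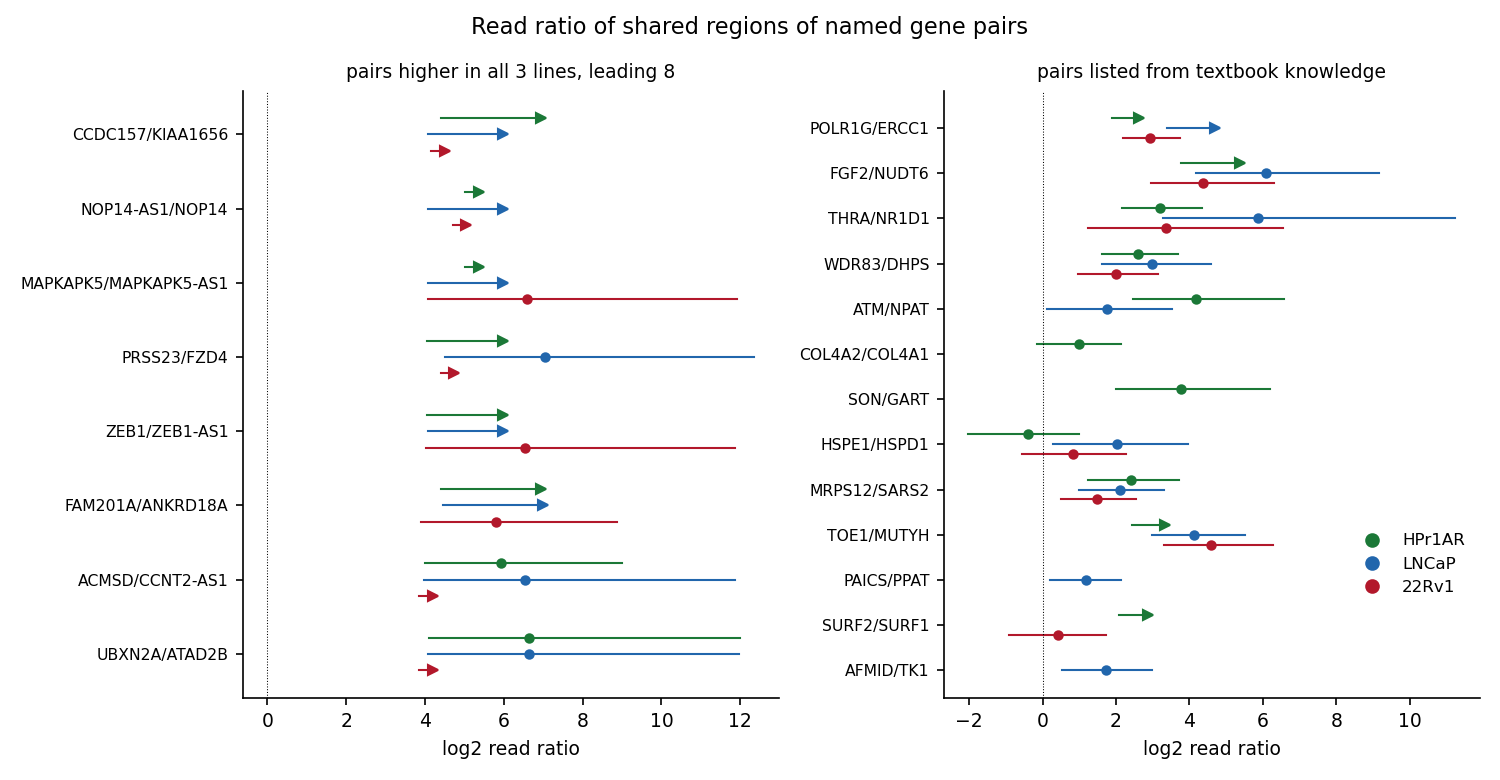
Log2 read ratio (x axis) of the leading region of gene pairs (rows) in each line (colours), without the short second region of FGF2/NUDT6; circles carry 95% exact binomial intervals, and arrowheads are lower bounds or ratios at a reference of 0, drawn from their lower limit. The leading 8 pairs (left) all have lower limits of 3.84 or more, while HSPE1/HSPD1 and COL4A2/COL4A1 (right) have intervals that reach 0 or below in HPr1AR.

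Well-known pairs gave the same picture with smaller values. Of 20 pairs listed from textbook knowledge, 17 had a member region in at least 1 line. All 3 lines listed 10 of them, and 9 of these were higher in all 3. THRA and NR1D1 encode the thyroid hormone receptor alpha and the clock repressor REV-ERB alpha, whose messages overlap at their 3 prime ends. Their shared region held 40 numerator reads against 10 in HPr1AR, 26 against 1 in LNCaP and 14 against 2 in 22Rv1. The log2 ratios were 3.19 (2.17 to 4.36), 5.88 (3.27 to 11.24) and 3.36 (1.23 to 6.54), with intervals that overlap between lines. FGF2, a growth factor gene, with its antisense gene NUDT6 held at least 55 against 3, 60 against 2 and 57 against 4. A second, short region of this pair in HPr1AR, with 2 reads against 7, was not called.

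WDR83 with DHPS, the first enzyme of hypusine synthesis, held 32 reads against 12, 21 against 6 and 30 against 11, in the order HPr1AR, LNCaP and 22Rv1. POLR1G, a subunit of RNA polymerase I, with the DNA repair gene ERCC1 held at least 59 against 22, at least 57 against 5 and 93 against 18. The rule for orientation gave that pair as convergent in LNCaP and 22Rv1 and as divergent in HPr1AR.

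Among divergent pairs, TOE1 with the base excision repair gene MUTYH held at least 57 reads against 13, 54 against 7 and 83 against 5. The mitochondrial translation genes MRPS12 and SARS2 gave log2 ratios of 2.41, 2.11 and 1.495. HSPE1 with HSPD1, which encode the mitochondrial chaperonin, was not called in any line, with 6 reads against 18, 9 against 5 and 11 against 9. Its intervals were -2.02 to 1.00 in HPr1AR, 0.29 to 3.95 in LNCaP and -0.57 to 2.29 in 22Rv1. The LNCaP interval lay above 0, with an adjusted p of 0.0512 in the exact binomial test.

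ATM, the DNA damage kinase gene, with the histone gene activator NPAT was higher in HPr1AR (24 reads against 3) and not called in LNCaP (9 against 6). COL4A2 with COL4A1, the basement membrane collagens, was listed in HPr1AR alone and not called (14 against 16, log2 ratio 1.00, -0.15 to 2.13). SURF2 with SURF1, a cytochrome oxidase assembly gene, was higher in HPr1AR (at least 58 against 18) and not called in 22Rv1 (11 against 12). SON with GART was higher in HPr1AR, and PAICS with PPAT and AFMID with TK1 were higher in LNCaP, each the only line that listed the pair as a member. BRCA1 with NBR2, PRKDC with MCM4, and RARB with TOP2B had 0 member regions in these tables.

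Of 13 prostate and receptor genes searched, among them KLK3, RARA and RARG, 2 had a member region. The corepressor gene CTBP1 shared a divergent region with the non-coding RNA CTBP1-DT, on chromosome 4. It held at least 56 reads against 7 in HPr1AR, at least 59 against 14 in LNCaP and 90 against 7 in 22Rv1, and was higher in each. The 22Rv1 log2 ratio was 4.23 (3.13 to 5.59). HOXB13, a homeobox gene of the prostate lineage, shared a region with PRAC2 in LNCaP (at least 63 against 36) and in 22Rv1 (70 against 14, counts that are not unique). HPr1AR listed HOXB13 in 3 exon regions, none of them a member.

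Members were spread unevenly over the chromosomes. On chromosome 16 they made up 4.22%, 4.70% and 4.62% of the exon regions (HPr1AR, LNCaP, 22Rv1). On chromosome X it was 1.32%, 1.60% and 1.22%. Chromosomes 1, 7, 11, 17, 19 and 22 also lay above the shares over all chromosomes of 2.71%, 3.09% and 2.94% in each line. The lines list many of the same gene pairs, so they are not independent evidence of this distribution.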

How the data were processed

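Total RNA was enriched with the EpiMark kit and sequenced as paired ends, per the labels' protocols. The authors deposited 1 table per line, of 3 cell lines, in which each region joins neighbouring windows and, per the file headers, carries a log2 fold, a p-value, an adjusted p-value and the overlapping genes with strand and exon, intron or promoter marks. Aligner, read counter and test program are not stated in the labels or headers. The submitters' processing notes name hg38. The tables hold 0 columns of per-sample values. Members and gene lists were chosen with earlier results of these data known.

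The deposited log2 fold was written as K + log2((a + prior)/prior) - 2 x log2(b + prior), with whole reads a in the numerator and b in the reference, and its constants were fitted on regions of few reads. Depths follow from the priors and were not checked against sequenced reads. For each region, a up to 150 and b were sought that give its fold within 2e-04, 0.006 and 3.71e-04 log2 units (HPr1AR, LNCaP, 22Rv1) and a p-value within 10% of the likelihood ratio test on the -log10 scale, allowing for the windows in the region. A trend of that test's scale over reads was taken from uniquely matched regions, after a first pass with limits of 0.6 and 1.35 times. Counts were found for 100%, 98.0% and 100% of regions with p above 0, and more than 1 pair of counts fitted in 233, 2395 and 267 regions, of which 16, 137 and 20 were members. For the rest, with a p of 0 in 8613, 6737 and 135 regions, the lowest counts able to give the deposited p-value were used. Such a region was called higher where these suffice and is undetermined otherwise (3, 16 and 0 members). The exact binomial test, its 95% intervals and the Benjamini-Hochberg adjustment at 0.05 used scipy 1.17.1 in Python 3.11.15. Windows and reads were binned at 10, 30, 100 and 200 windows and at 10, 20, 40 and 80 reads. The steps were tested on data simulated from the same fitted formula, with 1 window per region. Such a test cannot show whether the formula holds or how wide regions behave. Named regions were the 3 with the largest lower limit per line and orientation, the 8 pairs with the largest smallest lower limit over lines, the 3 lower calls per line with the smallest adjusted p, and the listed pairs, prostate genes and histone genes, of which some are counted but not reported by name here. RefSeq tables (GRCh38.p14) gave gene types, starts and promoter sequences.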

Additional observations from a re-analysis of the deposited data

How the results depend on the processing

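No paired analysis was possible because the tables hold no per-sample values, and for the same reason leaving out a replicate was not an option. Of 79 alternative values, 40 stayed within the limits set and 39 moved. Each value was scored by itself, so a turned order between groups was not counted. In each trio of values the order is HPr1AR, LNCaP, 22Rv1.

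Counting only exons that touch no promoter left 665, 674 and 590 members, of which 658, 670 and 589 passed the authors' adjusted p and 521, 519 and 471 were higher. Without regions known only as lower bounds, 953 of 1247 were higher in HPr1AR and 944 of 1266 in LNCaP. Dividing by the median ratio of each line (log2 1.19, 1.18 and 2.10) left 549 higher members in 22Rv1. Shares of members then came to 61.2%, 60.3% and 35.9%, against 21.5%, 21.7% and 15.8% of all regions, and 44, 32 and 134 members were lower. At an adjusted p under 0.01, and with p multiplied by the number of windows (chosen after seeing the data), the exact binomial test called 0 lower members in HPr1AR and 22Rv1, and with a minimum of 10 reads 1 in LNCaP.

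Weighted to the windows and reads of all members, 75.7% of convergent regions were higher in HPr1AR and 77.3% in LNCaP, and 83.8%, 81.7% and 82.2% of the other regions. Divergent regions then gave 88.7%, 85.0% and 87.4%. By RefSeq gene order, 82.7% of convergent and 82.3% of other regions were higher in 22Rv1. With p multiplied by windows the shares were 75.7%, 72.8% and 76.9% (convergent), 76.4%, 71.5% and 73.4% (divergent) and 63.8%, 62.7% and 64.0% (other). Members shared by both other lines came to 49.4%, 50.9% and 60.5% at a reciprocal overlap of 50%, and to 89.2%, 92.0% and 94.0% against any region. The counts of higher gene pairs stayed within 1.5 times. The cause of these moves was not tested, beyond the fewer regions that the first 2 settings leave. Depth limits regions of under 10 reads, where 30.5%, 39.5% and 39.1% of members were higher.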
